A study of Mus musculus with 7 samples.

Results

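S100 proteins are small calcium-binding proteins, and 9 of their genes, S100a4, S100a6, S100a8, S100a9, S100a10, S100a11, S100a13, S100a16 and S100b, were followed in the myocardium of mice with and without myocardial infarction (MI). They were chosen by symbol as members of the family, and all 9 were among the 56980 genes of the deposited table. The 7 animals were male C57BL/6J wild-type mice, obtained at 8 weeks of age and operated on after 1 week of acclimation. In 3 of them the left coronary artery was ligated and myocardium was taken after 4 days (MI mice), and 4 went through the same operation without the ligation (sham-operated mice). Each mouse gave 1 library of total RNA, and the article calls the tissue of the MI mice ischemic without describing how it was dissected. Values are FPKM, the fragments counted on a gene in relation to its length and to all fragments of the library.

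As background, S100 proteins carry a pair of EF-hand motifs, usually work as dimers, and expose a binding surface when calcium is bound. Inside cells they bind annexins, cytoskeletal proteins and calcium-handling proteins. Some are also released and act outside the cell on the receptor for advanced glycation end products (Ager, RAGE) and Toll-like receptor 4 (Tlr4), and S100a8 with S100a9 forms calprotectin, an abundant protein of neutrophils and monocytes. In the heart the main member of cardiomyocytes is S100a1, which binds the ryanodine receptor and the sarcoplasmic calcium pump.

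The libraries held 19977713 to 23610870 fragments. An MI library stood apart from its group: across genes, Pearson's r with the sham-operated mice was 0.984 to 0.987 in MI replicate 2, but 0.878 to 0.881 in replicate 1 and 0.903 to 0.906 in replicate 3, and sham-operated mice had 0.989 to 0.992 with each other. The tests of the S100 genes and the counts of each gene list are therefore given with and without MI replicate 2. That mouse was singled out by its likeness to the sham-operated mice, a choice that by itself favours a difference in the remaining mice. The p-values and counts without it describe those mice and are not separate evidence of a difference. Over all 7 mice, 2 of 11431 genes tested were higher in MI at an adjusted p of 0.05 (limma with Benjamini-Hochberg adjustment), which is 0.0175%, and 1 was lower (0.00875%). Without MI replicate 2, 57.0% were higher and 14.7% were lower. The median gene was 0.21 higher in MI on the log2 scale over all 7 mice and 0.33 higher without MI replicate 2.

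Of the 9 S100 genes, 5 (S100a4, S100a6, S100a8, S100a10 and S100a11) were higher in every MI mouse than in any sham-operated mouse, where 12.0% of the 30504 genes detected in any mouse were so. The mean in MI was 2.47 to 17.8 times the sham mean for these 5. The MI means of S100a13, S100a9 and S100b were 2.10, 11.5 and 1.77 times their sham means, with overlapping groups, and S100a16 was nearly level at 1.10. The ratios of the lowest genes rested on single mice: that of S100a9 was 28.9 without sham replicate 2 and 5.07 without MI replicate 1, and that of S100a8 was 27.8 without sham replicate 4 and 8.86 without MI replicate 1. MI replicates 1 and 3 carried most of the difference, and MI replicate 2 was the lowest MI mouse for each of the 9.

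The 6 genes S100a4, S100a6, S100a10, S100a11, S100a13 and S100a16 reached the level set for testing, an FPKM of 1 or more in 3 or more mice. The FPKM of each of the 6 was above 1 in every sham-operated mouse as well, while S100a8, S100a9 and S100b did not reach that level and are given by their values. With all 7 mice, 0 of the 6 passed an adjusted p of 0.05 in limma, and 5 had an unadjusted p under 0.05, where 29.5% of all genes tested were higher at that level. Without MI replicate 2, S100a4, S100a6, S100a10, S100a11 and S100a13 were higher at an adjusted p under 0.05, 5 of 6 beside the 57.0% of all genes. The exact two-sided permutation test over the 35 splits of 7 mice could not go below 0.0571.

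**Figure D1:**
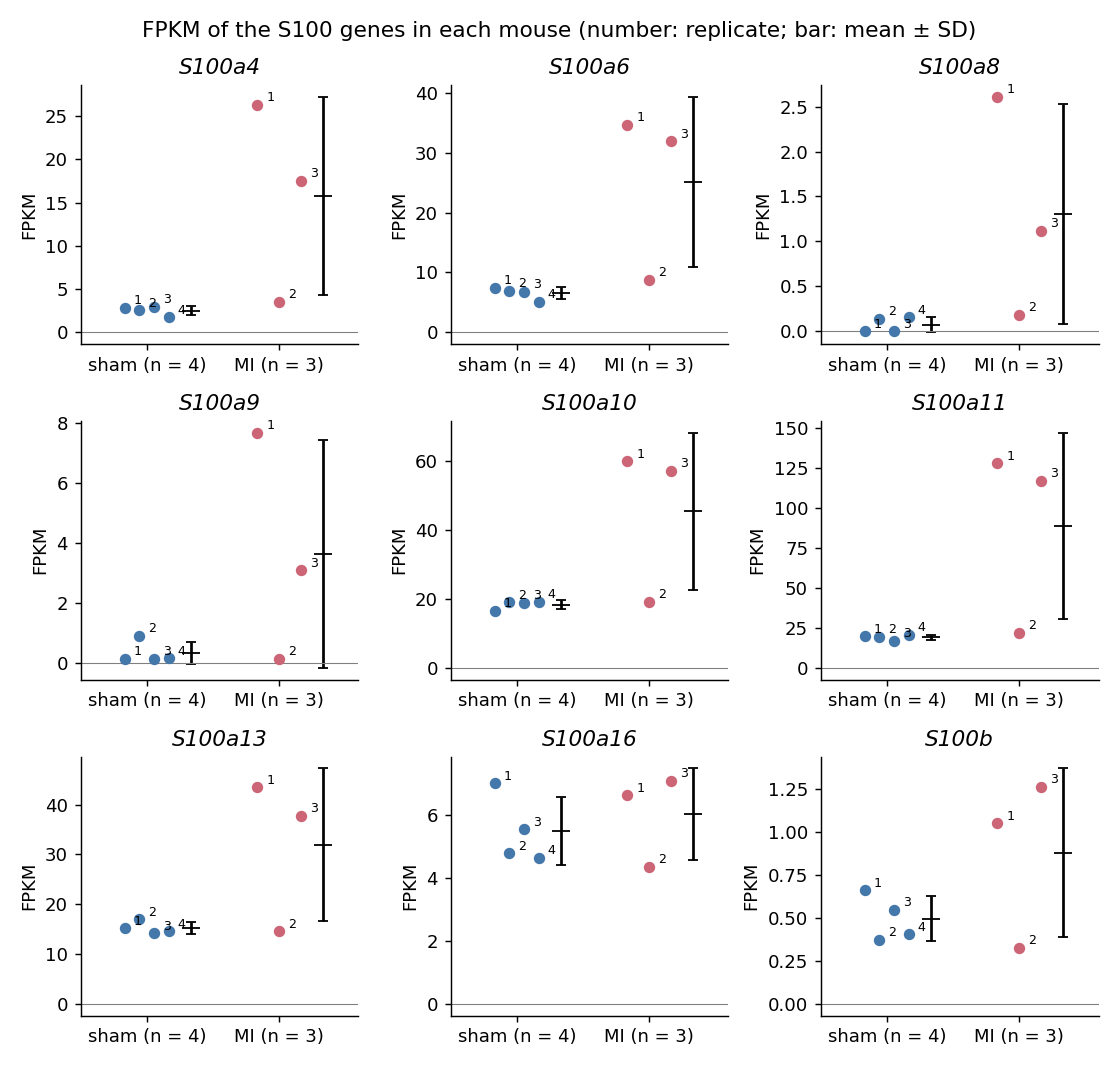
FPKM of the 9 S100 genes in each of 4 sham-operated (blue) and 3 MI mice (red), with the replicate number beside each point and the mean ± SD as a black bar; each panel has its own axis from 0. MI replicates 1 and 3 stood above all sham-operated mice in 8 panels, and in the S100a16 panel the groups mixed; MI replicate 2 lay near the sham-operated mice, for S100a11 at 22.0 FPKM beside 16.9 to 20.7.

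On GRCm38 with the GENCODE M21 annotation, 8 of the 9 genes lay on chromosome 3 and S100b on chromosome 10 (76253853 to 76261159, plus strand). S100a13, S100a16, S100a4, S100a6, S100a8 and S100a9 fell between positions 90511034 and 90695721 together with S100a1, S100a14, S100a3, S100a2, S100a5 and S100a7a. S100a11 and S100a10 followed after a gap of 2824766 bases. S100a1 and S100a13 are transcribed away from each other, with 42 bases between their annotated ends, and they differed in MI replicates 1 and 3: S100a13 was 2.85 and 2.48 times the sham mean there, and S100a1 was 0.997 and 1.12 times. In MI replicate 2 both were near the sham mean, at 0.959 and 1.01 times. This stretch, chr3:90514393-90514434 on GRCm38.p6, is printed in the direction of S100a13 because it is all that separates the pair, and is followed by 120 bases that end just before the annotated transcripts (the first start in RefSeq or GENCODE) of S100a4 (chr3:90603650-90603769), S100a6 (chr3:90612762-90612881), S100a8 (chr3:90668858-90668977) and S100a11 (chr3:93520368-93520487), genes whose groups did not overlap. The sequences are RefSeq's on the plus strand, 5′ to 3′, with matches to the motifs named below in capitals.
S100a1 to S100a13: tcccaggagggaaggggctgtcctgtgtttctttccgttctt
S100a4: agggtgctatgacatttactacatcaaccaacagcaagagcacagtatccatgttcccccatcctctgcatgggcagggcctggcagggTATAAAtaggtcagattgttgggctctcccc
S100a6: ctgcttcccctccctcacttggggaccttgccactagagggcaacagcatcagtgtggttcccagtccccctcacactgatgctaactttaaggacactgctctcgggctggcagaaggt
S100a8: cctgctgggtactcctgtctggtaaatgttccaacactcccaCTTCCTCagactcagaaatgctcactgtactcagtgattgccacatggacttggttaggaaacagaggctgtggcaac
S100a11: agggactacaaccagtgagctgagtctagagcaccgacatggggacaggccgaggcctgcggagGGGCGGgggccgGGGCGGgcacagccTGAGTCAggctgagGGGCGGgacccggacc

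The 250 bases before each RefSeq start were searched on both strands for 7 motifs in 32851 mouse promoters, and 8 of the 9 genes had an entry (all but S100a10). A TATA box (TATAAA), held by 12.4% of all promoters, was found for S100a4 and S100a8. That of S100a8 lies closer to its RefSeq start than the stretch printed above, which ends 93 bases before it. The AP-1 motif (TGANTCA), held by 6.75%, was found 2 times for S100a11 and 1 time at a second start of S100a16. The GC box (GGGCGG), held by 32.7%, was found 3 times for S100a11 and also for S100a9 and S100a16. The C/EBP motif (TTGCNNAA) was found for S100a9 and is held by 9.56%, and the PU.1 core (GAGGAAG, printed above on its other strand) was found for S100a8 and is held by 10.6%. The motifs of NF-kappaB (3.90% of promoters) and MEF2 (2.92%) matched 0 of the 8. S100a6, S100a13 and S100b had a match to none of the 7 motifs in this window.

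**Figure D2:**
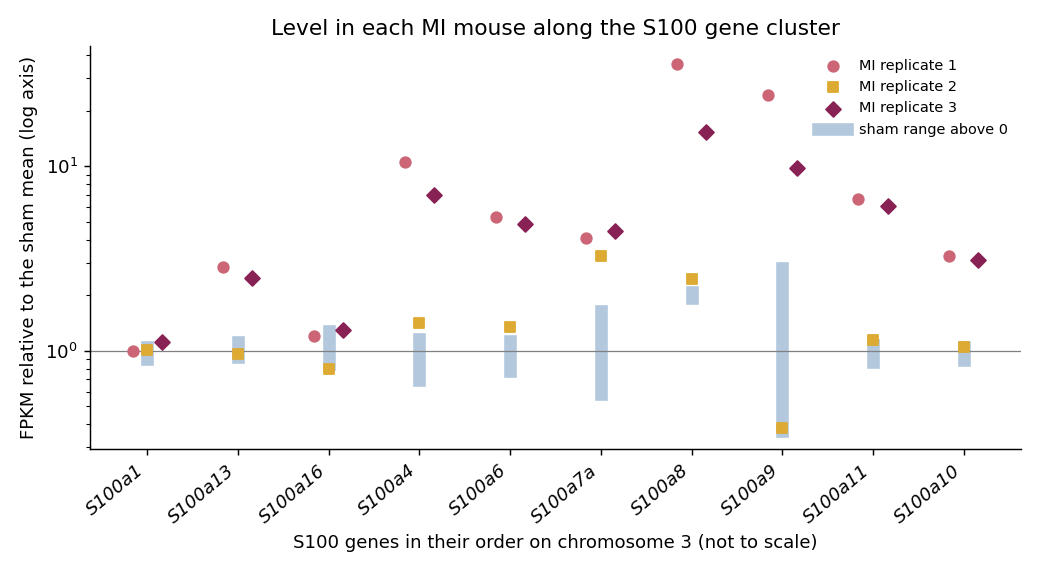
FPKM of each MI mouse relative to the sham mean (log axis) for the S100 genes of chromosome 3 in their order along it, left to right; blue bars span the sham-operated mice above 0. S100a1, near the sham mean, lies next to S100a13, at 2.85, 0.959 and 2.48 times in MI replicates 1 to 3; genes of low FPKM that lie between those shown are left out, and S100a7a is the gene at which MI replicate 2, at 3.26 times, stands well above the sham range.

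S100a11 and S100a10 were the most abundant of the 9 in sham-operated mice. S100a11, which binds annexin A1 and takes part in membrane repair and growth control, was at 19.8, 19.7, 16.9 and 20.7 FPKM in sham replicates 1 to 4 and at 128, 22.0 and 117 FPKM in MI replicates 1 to 3. The groups did not overlap, but MI replicate 2 lay just above the highest sham-operated mouse. These values rest on 203 to 227 fragments in each sham-operated mouse and 254 to 1429 in each MI mouse. Its log2 fold change was 1.80 (SE 0.568), with an adjusted p of 0.108 in limma over all 7 mice and of 2.30e-06 without MI replicate 2, where the log2 fold change was 2.61. A processed pseudogene of the same name, S100a11-ps, was listed at 0 in all 7 mice.

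S100a10 (p11), which does not respond to calcium itself and forms a membrane-bound complex with annexin A2, stood at 16.5, 19.0, 18.9 and 19.2 FPKM in the sham-operated mice. The MI mice had 59.9, 19.2 and 57.2 FPKM. MI replicate 2 and sham replicate 4 thus met at the rounded value, with the MI mouse higher by less than the rounding, and the other MI mice were 3.26 and 3.11 times the sham mean. The log2 fold change was 1.10 (SE 0.370, limma adjusted p = 0.108) and, without MI replicate 2, 1.62 (adjusted p = 7.02e-06).

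S100a4, known from fibroblasts and leukocytes and for binding the heavy chain of nonmuscle myosin IIA (Myh9), had with S100a11 the highest log2 fold changes of the 6 genes tested, which differed from each other by less than their SE. FPKM was 2.83, 2.54, 2.91 and 1.74 in the sham-operated mice against 26.3, 3.55 and 17.5 in the MI mice. All MI mice were above all sham-operated mice, by 10.5 times the sham mean in replicate 1, 1.42 times in replicate 2 and 6.99 times in replicate 3. The log2 fold change was 1.93 (SE 0.559, limma adjusted p = 0.108) with all mice and 2.69 (SE 0.195, adjusted p = 3.52e-05) without MI replicate 2. The annotated exons of S100a4 share 302 of 584 bases with the predicted gene Gm42674 on the same strand, which had at most 1 fragment in any mouse.

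S100a6 (calcyclin), found in fibroblasts and epithelia, was at 7.44, 6.95, 6.73 and 5.08 FPKM in sham-operated mice. In MI mice it was at 34.7, 8.79 and 31.9 FPKM, so that every MI mouse was higher and replicate 2 again the lowest. Its log2 fold change of 1.59 (SE 0.435, limma adjusted p = 0.108) became 2.19 (adjusted p = 1.77e-05) without MI replicate 2. Differences in log2(FPKM + 1) from the sham mean were close for S100a4, S100a6 and S100a11: their root mean square distances over the 7 mice were 0.260 for S100a4 and S100a11, 0.297 for S100a6 and S100a11, and 0.298 for S100a4 and S100a6. S100a10 and S100a13 were closest of all pairs of the 6 genes tested, at 0.178.

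S100a13, which takes part in the export of Fgf1 and Il1a, had 15.2, 17.0, 14.2 and 14.6 FPKM in the sham-operated mice and 43.5, 14.6 and 37.8 in the MI mice. MI replicate 2 was within the sham range, so the groups overlapped, and the other MI mice were above it. The log2 fold change was 0.89 (SE 0.340, limma adjusted p = 0.113) and without MI replicate 2 it was 1.36 (adjusted p = 2.62e-05). Of its cargo genes, Fgf1 was at 12.5, 14.5 and 13.8 FPKM in MI mice against 17.3 to 18.1 in sham-operated mice. Its log2 fold change was -0.35 (limma adjusted p = 0.108), and Il1a was at most 0.186 FPKM in any mouse.

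S100a16, expressed in many tissues, differed from these genes. Its FPKM was 7.02, 4.79, 5.55 and 4.65 in sham-operated mice and 6.64, 4.37 and 7.09 in MI mice, with the groups mixed. The log2 fold change of 0.11 (SE 0.186, limma adjusted p = 0.665) was below that of the median gene, and its sign depended on the scaling: it was -0.17 with quantile normalization, -0.13 by the median log-ratio, -0.01 without mitochondrial genes and 0.30 as TPM. Without MI replicate 2 it was 0.29 (adjusted p = 0.108).

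S100a8 and S100a9, the subunits of calprotectin, were the lowest of the 9 genes in sham-operated mice and showed the highest ratios in MI. S100a8 had 0, 3, 0 and 3 fragments in sham replicates 1 to 4 and 56, 4 and 26 in MI replicates 1 to 3, which gave 0 to 0.153 FPKM against 2.61, 0.180 and 1.12. MI replicate 2 exceeded the highest sham-operated mouse by 1 fragment, and its level was 0.180 against 0.153. Over the groups, 86 fragments against 6 gave a ratio of 18.5 after allowance for depth (exact 95% interval 8.14 to 51.7, counting error only). S100a9 had 2, 14, 2 and 2 fragments in the sham-operated mice and 122, 2 and 53 in the MI mice, or 0.122, 0.887, 0.117 and 0.137 FPKM against 7.69, 0.121 and 3.08. Sham replicate 2 was the highest of its group, and MI replicate 2 was at the level of the other sham-operated mice. With no filter on low values, the log2 fold change was 0.96 for S100a8 (limma adjusted p = 0.188) and 1.41 for S100a9 (adjusted p = 0.217), and 0.0656% of the 30504 genes were higher at an adjusted p of 0.05. When MI replicate 2 was left out as well, the values were 1.37 (adjusted p = 0.00540) and 2.22 (adjusted p = 0.00678), where 35.8% of those genes were higher. Without MI replicate 1 the differences in mean log2 were 0.56 for S100a8 and 0.74 for S100a9, and with a pseudocount of 0.1 they were 2.63 and 2.44.

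S100b, best known from glia and Schwann cells, was at 0.661, 0.373, 0.545 and 0.405 FPKM in sham-operated mice and at 1.05, 0.327 and 1.26 in MI mice, from 11 to 44 fragments per mouse. MI replicate 2 was the lowest of all 7 mice and the other MI mice the highest. Without a filter the log2 fold change was 0.30 (limma adjusted p = 0.363), and without MI replicate 2 as well it was 0.53 (adjusted p = 0.00990). The difference in mean log2 was 0.15 without MI replicate 3, and 0.56 as TPM or 0.58 with a pseudocount of 0.1.

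Among 9 other mouse S100 genes, 8 were in the table by symbol. S100a1, the cardiomyocyte member, was at 292, 283, 280 and 251 FPKM in sham-operated mice and 276, 280 and 309 FPKM in MI mice, and the groups overlapped. Its log2 fold change of 0.06 (SE 0.116, limma adjusted p = 0.697) also changed sign with the scaling, to -0.08 with quantile normalization, -0.21 by the median log-ratio and -0.07 without mitochondrial genes, against 0.26 as TPM. It was 0.08 without MI replicate 2 (limma adjusted p = 0.413). S100a1 held 79.0 to 80.7% of the summed FPKM of the family in sham-operated mice, 46.8% in MI replicate 1, 79.1% in MI replicate 2 and 52.9% in MI replicate 3. S100a11 alone held 4.88 to 6.50% in sham-operated mice and 21.8, 6.21 and 20.1% in the MI mice. S100a7a, related to human psoriasin, was the gene of the family for which MI replicate 2 moved with its group: it was at 0.745, 0.592 and 0.807 FPKM in MI mice against 0.106 to 0.301 in sham-operated mice, from 3 to 27 fragments. Its log2 fold change without a filter was 0.54 (SE 0.0821), with an adjusted p of 0.165 in limma, and 1.57 with a pseudocount of 0.1 and 0.99 as TPM. Leaving out MI replicate 2 as well gave 0.59 (limma adjusted p = 0.00211, beside 35.8% of the 30504 genes higher). S100a2, S100a5 and S100z were listed at 0 in every mouse, and S100a3, S100a14 and S100g had at most 13 fragments in any mouse.

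In sham-operated mice the order of levels, in FPKM, was S100a11 (19.3 ± 1.62; SD, n = 4), S100a10 (18.4 ± 1.25), S100a13 (15.3 ± 1.23), S100a6 (6.55 ± 1.02), S100a16 (5.50 ± 1.09), S100a4 (2.51 ± 0.535), S100b (0.496 ± 0.133), S100a9 (0.316 ± 0.381) and S100a8 (0.0733 ± 0.0848). The ranges of the neighbours S100a11 and S100a10, S100a10 and S100a13, and S100a6 and S100a16 overlapped, as did those of S100b and S100a9 and of S100a9 and S100a8. In MI mice S100a11 was at 89.2 ± 58.5 FPKM (SD, n = 3), S100a10 at 45.5 ± 22.7, S100a13 at 32.0 ± 15.3, S100a6 at 25.1 ± 14.2, S100a4 at 15.8 ± 11.5 and S100a16 at 6.03 ± 1.46, with each neighbour overlapping the next. S100a4 had thus moved from below to above S100a16 in mean level. Comparisons between genes rest on the lengths the authors divided by, which could be read from the steps of the values: they equalled the GENCODE M21 exon length for S100a11 (511 bases), S100a13 (715) and S100b (1484), but were 1.34 to 1.43 times as long for S100a4, S100a6, S100a8, S100a9 and S100a10, 1.81 times for S100a1 and 3.33 times for S100a16. The order of levels given here, above all the place of S100a16, and the share of S100a1 in the family rest on these lengths too, while comparisons of 1 gene between mice do not.

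Of 9 genes for receptors and adaptors of released S100 proteins, 7 were tested: 0 passed an adjusted p of 0.05 in limma, and 3 had an unadjusted p under 0.05, all higher in MI (29.5% of all genes). In the fit that left out MI replicate 2 all 7 passed an adjusted p of 0.05, 5 of them higher (57.0% of all genes; 1 of the 5, Ly96, had reached the filter only with MI mice) and 2, Cd36 and Bsg, lower (14.7% of all genes). The largest value was that of Cd14, the co-receptor of Tlr4, at 1.94 to 2.85 FPKM in sham-operated mice and 17.4, 3.10 and 17.5 FPKM in MI mice (log2 fold change 1.70, SE 0.510). Tlr4 was at 0.403 to 1.93 FPKM and at 4.29, 2.52 and 4.42 FPKM (log2 fold change 0.98), and its adaptor Myd88 had a log2 fold change of 0.72; the adjusted p was 0.108, 0.108 and 0.109 for Cd14, Tlr4 and Myd88. Among the 7 tested, Cd14 and Tlr4 were higher in MI without overlap of the groups, beside 16.1% of all genes tested. Bsg, a receptor of S100a9, was at 131, 175 and 158 FPKM in MI mice against 182 to 188 (log2 fold change -0.26, limma adjusted p = 0.151). The share of all genes that were lower without overlap was not counted. Ager, the RAGE gene, and Alcam were under the filter, at no more than 0.464 and 1.65 FPKM in any mouse, and for both all 3 MI mice exceeded the 4 sham-operated ones, as in 12.0% of the 30504 genes detected. The median log2 fold change of the 7 was 0.47, beside 0.21 over all genes, and 0.80 without MI replicate 2, beside 0.33.

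All 9 annexins were tested. None passed an adjusted p of 0.05 in limma (0 of 9); 6 had an unadjusted p under 0.05, higher in MI, beside 29.5% of all genes, and for 5 annexins the groups did not overlap, beside 16.1% of all genes tested. Anxa8 reached the filter only through the MI mice, where it was high, and without it the counts were 5 and 4 of 8. Anxa1 was at 3.64 to 4.34 FPKM in sham-operated mice and 32.6, 6.05 and 32.3 FPKM in MI mice, a log2 fold change of 1.99 (SE 0.523, adjusted p = 0.108). Anxa2 was at 14.9 to 16.5 and at 92.7, 22.1 and 82.4 FPKM, a log2 fold change of 1.77 (SE 0.454, adjusted p = 0.108). In Anxa8, a low gene in sham-operated mice (0.162 to 0.351 FPKM), all MI mice were higher at 5.16, 2.00 and 3.98 FPKM. At the other end Anxa6, the annexin of highest FPKM in the sham-operated mice (71.6 to 75.6), and Anxa11 had log2 fold changes of 0.09 and -0.07. The median over the 9, Anxa8 included, was 0.99 with all mice and 1.46 without MI replicate 2. In that fit 8 of the 9, again with Anxa8 among them, were higher at an adjusted p under 0.05 in limma, beside 57.0% of all genes.

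**Figure D3:**
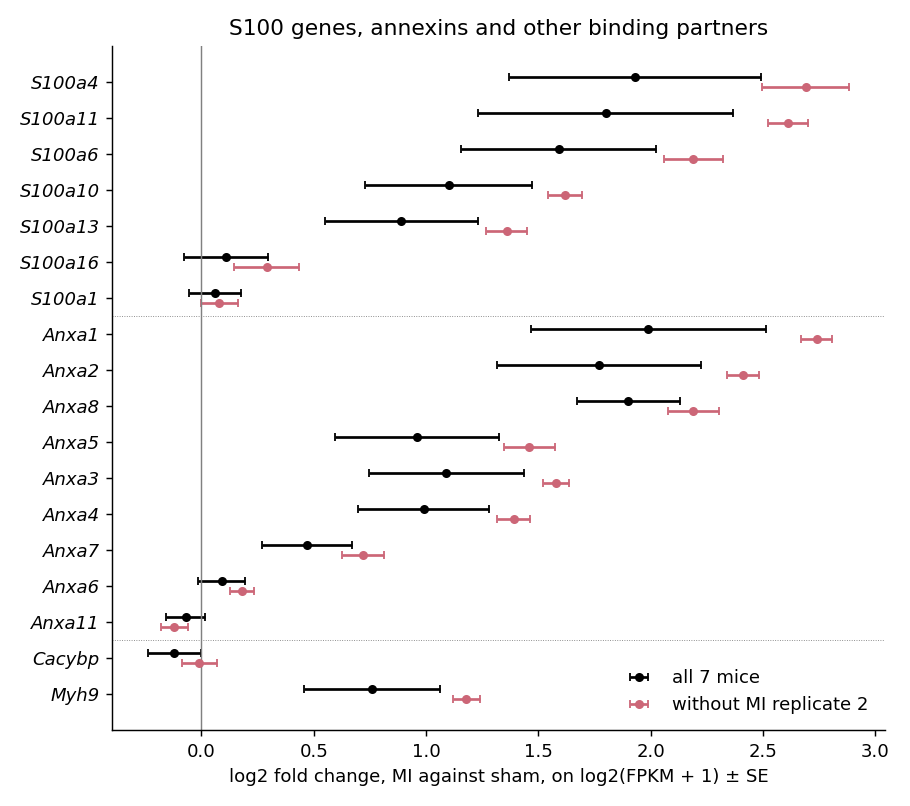
Log2 fold change of MI against sham on log2(FPKM + 1), with its SE, for 7 S100 genes, 9 annexins (Anxa8 reached the filter only through the MI mice) and the binding partners Cacybp and Myh9, over all 7 mice (black) and without MI replicate 2 (red). Leaving out that mouse raised the value of S100a4 from 1.93 to 2.69 and shortened its SE from 0.559 to 0.195, while S100a1 and S100a16 (both negative under 3 rescalings and positive as TPM), Anxa6, Anxa11 and Cacybp stayed close to 0.

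Of 12 other intracellular partners, 10 were tested, 0 at an adjusted p under 0.05; at an unadjusted p under 0.05, 3 were higher (29.5% of all genes) and 4 lower (9.85% of all genes), and the median log2 fold change was 0.04. When MI replicate 2 was left out, 5 of the 10 passed an adjusted p of 0.05 as higher (57.0% of all genes) and 4 as lower (14.7%), with a median of 0.18. The 3 largest were Atp2a2, the sarcoplasmic calcium pump, at -0.81 (limma adjusted p = 0.112), Myh9 at 0.76 (adjusted p = 0.117) and Trp53 at 0.54 (adjusted p = 0.185). Atp2a2, a partner of S100a1, was at 1418 to 1502 FPKM in sham-operated mice and 607, 1457 and 665 FPKM in MI mice.

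For 6 pairs of known partners or family members the within-mouse difference in log2(FPKM + 1) was compared between the groups, which largely removes a shift shared by both genes (not fully, because of the added 1). S100a10 minus Anxa2 was 0.14 to 0.30 in sham-operated mice and -0.62, -0.19 and -0.52 in MI mice, lower in all 3 including MI replicate 2. The mean difference between groups was -0.67: both genes had higher values in MI, Anxa2 by more. S100a11 minus Anxa1 was 1.95 to 2.05 in sham-operated mice and 1.95, 1.70 and 1.83 in MI mice, a smaller difference of -0.19 in which MI replicate 1 and sham replicate 3 met at the rounded value. With a pseudocount of 0.1 this difference was -0.34. S100a6 minus Cacybp was 1.71 higher in MI and S100a4 minus Myh9 1.17 higher, without overlap of the groups. Cacybp itself had a log2 fold change of -0.12. S100a6 minus S100a1 was -5.37 to -5.12 in sham-operated mice and -2.95, -4.84 and -3.23 in MI mice, 1.53 higher. This pair was chosen for the rise of S100a6 against the cardiomyocyte member. S100a1 was near level (log2 fold change 0.06), so the difference mostly repeats that of S100a6 (1.59). Each of the 5 pairs above had an exact two-sided permutation p of 0.0571, the smallest possible, and 0.0686 after Benjamini-Hochberg adjustment over 6. The share of gene pairs in general without overlap was not counted, so these 5 cannot be read as particular to the partners. S100a9 minus S100a8 overlapped between the groups, with a difference of 0.46 (exact permutation p = 0.400). This value was 0.18 without MI replicate 1, 0.85 without MI replicate 2 and -0.20 with a pseudocount of 0.1.

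**Figure D4:**
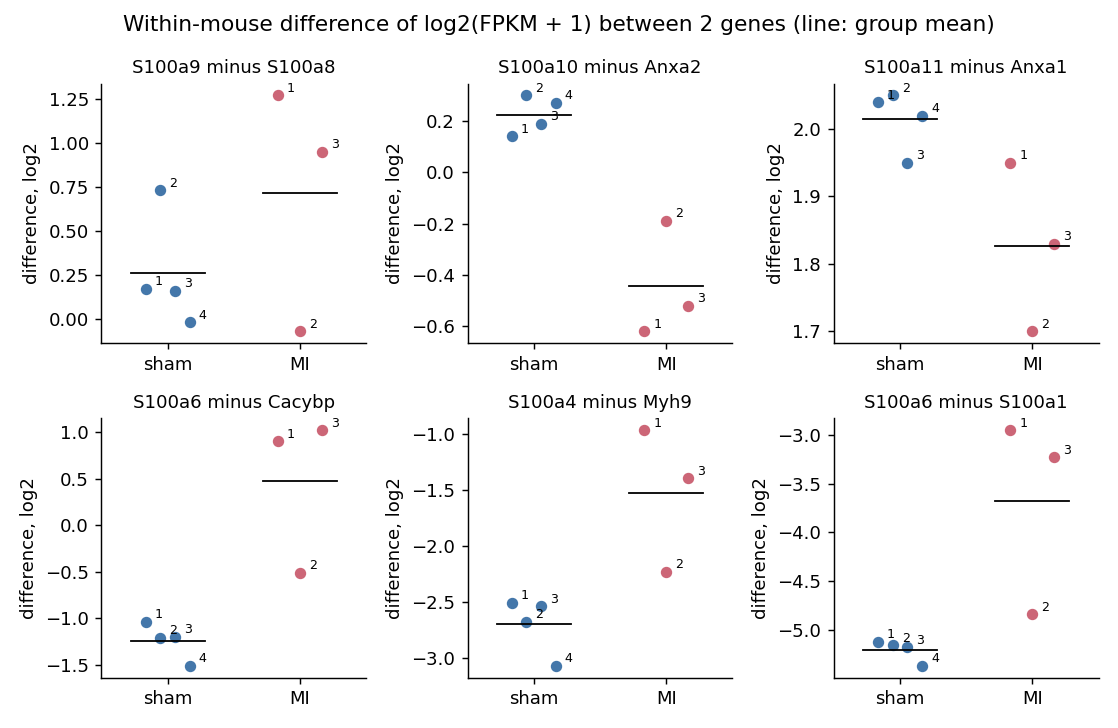
Within-mouse difference in log2(FPKM + 1) between the genes of 6 pairs, for 4 sham-operated (blue) and 3 MI mice (red), with replicate numbers and group means as lines; each panel has its own axis, which does not start at 0. S100a10 minus Anxa2 is positive in the 4 sham-operated mice and negative in the 3 MI mice, and the S100a9 minus S100a8 groups overlap.

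Because extracellular S100 proteins act on NF-kappaB signalling, 13 genes of that pathway and its targets were read from the same fit. Of 9 tested, 0 passed an adjusted p of 0.05 in limma and 5 had an unadjusted p under 0.05, all higher (29.5% of all genes), with a median log2 fold change of 0.52. Without MI replicate 2, 9 of the 9 were higher at an adjusted p under 0.05, beside 57.0% of all genes, and the median was 0.83. Of those tested, the adhesion molecules Vcam1 and Icam1 had the largest, 1.28 and 1.06 (adjusted p of 0.108 for each), followed by Nfkb1 at 0.63 (adjusted p = 0.110), and MI replicate 2 was within the sham range of all 3. Under the filter, 2 genes of the list were higher in every MI mouse than in any sham-operated mouse, beside 12.0% of the 30504 genes detected. Among 12 other EF-hand calcium sensors, 11 were tested, 0 at an adjusted p under 0.05 and 5 higher at an unadjusted p under 0.05, against 29.5% of all genes, and the median was 0.40. The fit without MI replicate 2 had 10 of the 11 higher at an adjusted p under 0.05 (57.0% of all genes), with a median of 0.66. The largest were Efhd2 at 1.62, Hpcal1 at 0.93 and Sri at 0.80 (limma adjusted p of 0.108 for each).

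Markers of other cells moved with the S100 genes from mouse to mouse, and in bulk tissue fewer cells of a type and less RNA per cell cannot be told apart. The tissue carried its defining markers: the 10 cardiomyocyte markers summed to 16050 to 17470 FPKM in sham-operated mice and to 10681, 15930 and 11646 FPKM in MI mice, and 5 of the 10 were lower at an unadjusted p under 0.05, beside 9.85% of all genes (limma; 0 at an adjusted p under 0.05), with Tnni3, Ckm and Myl2 at log2 fold changes of -0.93, -0.78 and -0.75. The 10 fibroblast markers, all tested and all higher at an unadjusted p under 0.05 beside 29.5% of all genes, summed to 143 to 163 FPKM in sham-operated mice and to 2600, 261 and 2016 in MI mice, with log2 fold changes of 4.10 for Postn, 3.69 for Col1a1 and 3.37 for Col3a1. The 12 monocyte and macrophage markers summed to 159 to 206 FPKM and to 1069, 193 and 914 FPKM, and the 7 tested were all higher at an unadjusted p under 0.05, beside the same 29.5% (Lyz2 1.75, Cd68 1.58, Fcgr1 1.55); Fcgr1 reached the filter only through the MI mice, and the other 6 were all higher too. In each of these lists 0 genes passed an adjusted p of 0.05 in limma over all 7 mice. Without MI replicate 2, 9 of 10 cardiomyocyte markers were lower, and 10 of 10 fibroblast and 7 of 7 macrophage markers higher, at an adjusted p under 0.05, beside 14.7% of all genes lower and 57.0% higher. The order of the MI mice in the fibroblast and macrophage sums, replicate 1 highest and replicate 2 lowest, was that of S100a4, S100a6, S100a10, S100a11 and S100a13. Their part in the S100 results was not tested.

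For S100a8 and S100a9, neutrophil markers were read beside the monocyte and macrophage markers above. Of 13 neutrophil markers 0 passed the filter. They summed to 0.595 to 0.612 FPKM in sham-operated mice and to 12.1, 0.378 and 5.53 FPKM in MI mice, again in the order of S100a8 and S100a9. In MI replicate 2 this sum was below every sham-operated mouse, where S100a8 was above them all. Higher in every MI mouse than in any sham-operated mouse were 2 of the 13 neutrophil markers and 5 of the 12 monocyte and macrophage markers, beside 12.0% of the 30504 genes detected. Ly6g was listed at 0 in every mouse, 5 of the 13 were at 0 in every sham-operated mouse and 8 of 13 were at 0 in MI replicate 2. The 8 lymphocyte markers summed to 0.847 to 0.970 FPKM in sham-operated mice and to 28.9, 1.22 and 6.02 in MI mice, led by the B cell gene Cd79a at 16.9 FPKM in MI replicate 1; 0 passed the filter. Their part in the results was not tested.

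For S100b, the 9 Schwann cell markers summed to 3.03 to 3.91 FPKM in sham-operated mice and 4.48, 4.75 and 4.64 in MI mice, with 1 tested (Cdh19, log2 fold change 0.09, limma adjusted p = 0.541). MI replicate 2, the lowest mouse for S100b, was the highest for this sum. Adipocytes also express S100b: the 6 adipocyte markers, 0 of which passed the filter, summed to 0.184 to 0.830 FPKM in sham-operated mice and to 92.7, 0.216 and 279 FPKM in MI mice, and MI replicate 3 was the highest both for this sum and for S100b. Of 8 endothelial markers 2 were higher at an unadjusted p under 0.05, beside 29.5% of all genes (limma; 0 at an adjusted p under 0.05, and 6 higher without MI replicate 2, beside 57.0% of all genes). The largest log2 fold changes were those of Vwf, Egfl7 and Pecam1 at 0.74, 0.44 and 0.41, Cdh5 was at 0.06, and Kdr was at -0.20 (17.7, 16.5 and 16.4 FPKM in MI mice against 18.1 to 21.5). The endothelial sums were 137 to 155 FPKM against 174, 130 and 188. The 8 mesothelial markers summed to 4.58 to 10.9 FPKM and to 44.0, 23.6 and 55.5 FPKM, so that MI replicate 2 was above every sham-operated mouse, as for S100a7a. Of 7 mesothelial markers that reached the filter, 6 did so only with MI mice, where they were high, so no count of tests is given. Krt18 was at 0.217 to 0.652 FPKM in sham-operated mice and 11.9, 1.48 and 9.31 in MI mice, and Upk3b, the marker that sham-operated mice alone would have passed, was at 1.73 to 4.28 and at 9.07, 7.18 and 16.8 FPKM (log2 fold change 1.65, limma adjusted p = 0.108). The part of these cells in the S100 values was not tested.

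**Figure D5:**
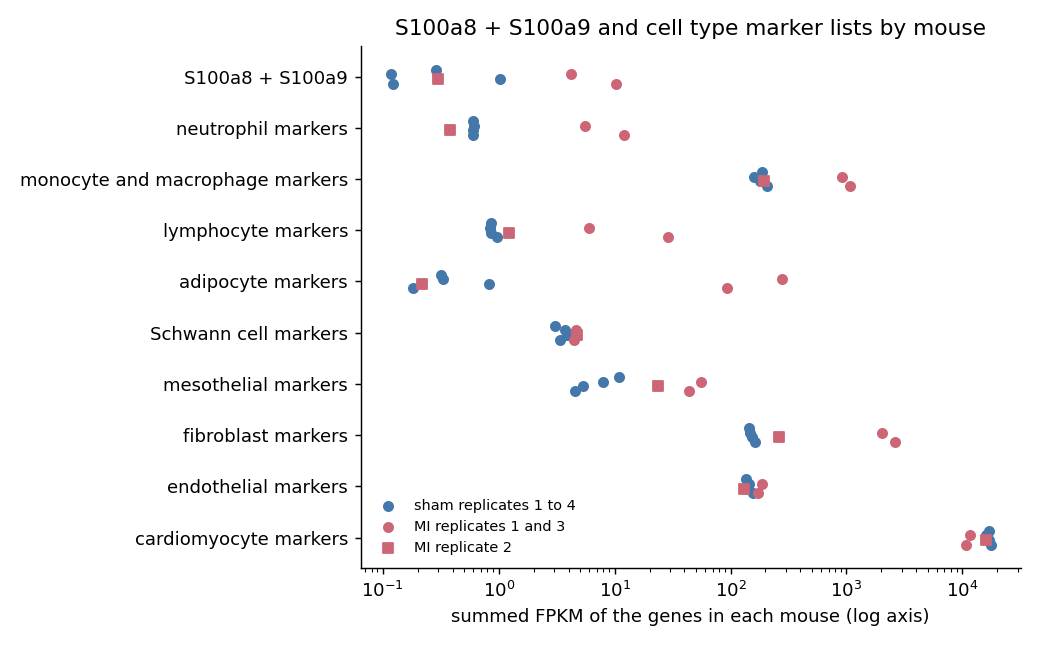
Summed FPKM (log axis) of S100a8 with S100a9 and of 9 lists of cell type markers in each sham-operated mouse (blue circles), MI replicates 1 and 3 (red circles) and MI replicate 2 (red squares). MI replicates 1 and 3 lie outside the sham range on all 9 lists, below it for cardiomyocyte markers and above it for the others (neutrophil 12.1 and 5.53 FPKM). MI replicate 2 is above the sham range on the mesothelial, fibroblast, lymphocyte and Schwann cell lists. It is below that range on the neutrophil, endothelial and cardiomyocyte lists.

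For each of the 6 genes tested, the 3 genes outside the family with the most similar pattern were taken by the root mean square difference of log2(FPKM + 1), centred on the sham mean, over the 7 mice. They were Rcn3 (0.108), Ifi30 and Cd53 for S100a4, Tnfaip8l2 (0.0845), Dpt and Col6a3 for S100a6, and Ctsz (0.0375), Cercam and Abi3bp for S100a11. S100a10 was nearest to Hexa (0.0504), Rpl3 and Igsf8, S100a13 to B2m (0.0448), Rcc2 and Morf4l2, and S100a16 to Elp5 (0.0780), Fn3krp and Gtpbp8. Ctsz, a lysosomal protease, had 16.6 to 20.9 FPKM in sham-operated mice and 122, 21.9 and 113 in MI mice, values close to those of S100a11 in scale as well as in pattern. B2m, the light chain of major histocompatibility class I molecules, was at 203 to 225 FPKM and at 568, 196 and 518 FPKM, about the same ratio as S100a13 at a higher level.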

How the data were processed

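Total RNA from the myocardium of 7 mice was sequenced. Per the labels' protocols and the article's methods, the mice were sham-operated (n = 4) or had the coronary artery ligated (n = 3). The submitters' processing notes name CASAVA 1.8, HISAT2, SAMtools 1.3.1, edgeR and mm10; the counting program, annotation and strand setting are not given in the sources used here. The authors deposited FPKM values for 56980 genes (0 columns of values were left unused). The values moved in whole steps of 1 fragment for 99.99% of 30504 genes above 0 (within 0.02 fragments), from which depths of 19977713 to 23610870 fragments and the gene lengths were recovered; intervals from fragments cover counting error only.

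Values were analysed as log2(FPKM + 1), so fold changes of low genes are understated. Genes reaching an FPKM of 1 in 3 or more mice (11431) entered a fit in limma 3.58.1 (eBayes with trend, R 4.3.3) of MI against sham, no covariates, Benjamini-Hochberg adjustment. The S100 genes and 6 gene pairs were also given an exact two-sided permutation test in SciPy 1.17.1, and the scripts were tested on simulated data. The S100 genes, the 16 gene lists and the pair of S100a6 with S100a1 were chosen with earlier results of these data known. Named are all S100 genes, the pair partners, up to 3 genes per list with the largest log2 fold change and markers at 0, and 3 genes nearest in pattern; Anxa6, Anxa11, Ager, Alcam, Bsg, Cd36, Fgf1, Il1a, Cdh5, Kdr, Ly96, Upk3b and Cd79a were added after their values were seen. Replicate numbers did not pair the mice (correlations of same-numbered mice 0.074, -0.016 and -0.08). Alternatives changed the pseudocount, filter, scaling, limma options and mice included; 1, without filter and MI replicate 2, was added after seeing the data. Symbols and positions are from GENCODE M21, which held 91.4% of the genes.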

Additional observations from a re-analysis of the deposited data

Results flagged for a closer look

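In 4 of 28 sets of sham-operated mice (the S100 genes and the summed gene lists), 1 mouse stood farther from the rest than Dixon's 95% limit, where chance gives about 1.40. For S100a9, sham replicate 2 was at 0.887 FPKM and the others at 0.117 to 0.137 (gap 0.973 of the range). For S100a10, sham replicate 1 was at 16.5 FPKM and the others at 18.9 to 19.2 (gap 0.904). For S100a14, sham replicate 1 was at 0.129 FPKM and the others at 0 to 0.0137 (gap 0.894). The lymphocyte marker sum was 0.970 FPKM in sham replicate 1 and 0.847 to 0.864 in the others (gap 0.860). The 3 MI mice are too few for this limit.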

How the results depend on the processing

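At an adjusted p of 0.05, the fit over all genes had 2 higher and 1 lower in MI. Lowering the pseudocount to 0.1 gave 5 and 1, and dropping the filter 20 and 1. The counts were 0 and 0 with a filter on the mean (3639 and 1101 at an unadjusted p under 0.05), 2 and 0 as TPM, 10 and 5 with quantile normalization and again with median log-ratio scaling, 10 and 4 without mitochondrial genes, 1 and 1 with voom weights, and 7636 and 2316 with sample weights, whose estimation did not converge and gave MI replicate 3 nearly all the weight. Leaving out 1 mouse gave 0 to 6512 higher and 0 to 1683 lower, the highest without MI replicate 2. With a replicate block, 0 were higher and 0 lower in limma (1770 and 562 at an unadjusted p under 0.05).

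The number of S100 genes at an adjusted p under 0.05 (0 of 6) became 6 with sample weights, where most genes passed (the 7636 and 2316 above, of 11431), 5 without MI replicate 2, beside 57.0% of all genes (leaving out other mice gave 0), and 8 of 9 with neither filter nor MI replicate 2, beside 35.8%. S100a4, S100a6, S100a10, S100a11 and S100a13 kept a positive log2 fold change under all 18 alternatives and the added one, from 0.60 for S100a13 to 2.69 for S100a4. That of S100a16 turned negative with quantile normalization (-0.17), median log-ratio scaling (-0.13), without mitochondrial genes (-0.01) and without MI replicate 3 (-0.01; the values without 1 mouse ran to 0.29, without MI replicate 2), and that of S100a1 with the first 3 of these (-0.08, -0.21 and -0.07), while as TPM they were 0.30 and 0.26; the cause was not tested. The difference of S100a9 minus S100a8 became -0.20 with a pseudocount of 0.1, and the other 5 pairs kept their direction. With a block, a sign-flip test of 3 same-numbered pairs cannot go below 0.250. S100a8, S100a9 and S100b rest on few fragments, where 1 fragment moves a value visibly.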
